A study of Mus musculus with 7 samples.

Results

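The 10 genes described here encode the main proteins of the cardiac intercalated disc: Dsp, Pkp2, Jup, Dsg2 and Dsc2 of the desmosome, Cdh2, Ctnnb1 and Ctnna3 of the adherens junction, and Tjp1 and Vcl, which join junctions to the actin cytoskeleton. They were chosen by name for their place in the disc, and all 10 were found among the 14641 genes of the count table. RNA was sequenced from whole heart lysates of male C57BL/6J mice, 4 non-transgenic littermates (NTG, libraries 1 to 4) and 3 mice with full-length Nrf2 (mNrf2-TG, libraries 17 to 19), with 1 library per mouse. The transgene is driven by the αMHC promoter and is therefore expressed in cardiomyocytes, while the lysate holds RNA of every cell type of the heart. The age is given as 6 months in the labels of the mNrf2-TG libraries, as 6–7 months in the methods and as 7–8 months in the design text. In a bulk lysate, fewer cells of a type and less RNA per cell cannot be told apart.

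The intercalated disc joins cardiomyocytes end to end. In its desmosomes, cadherins of the desmoglein and desmocollin families bind the neighbouring cell, and plakoglobin, plakophilin and desmoplakin tie them to desmin filaments. In its adherens junctions, N-cadherin is tied through β-catenin or plakoglobin and an α-catenin to actin, with vinculin as a further link. Mutations of the desmosomal genes and of the α-catenin Ctnna3 are known causes of arrhythmogenic cardiomyopathy.

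Between 6534684 and 8405857 reads per library fell on the listed genes, and the members had between 273 and 15031 reads in every library. Nfe2l2, the gene for Nrf2, had 1402, 1253, 752 and 1050.4 normalized counts in NTG 1 to 4 and 12029.8, 10751 and 11654 in mNrf2-TG 17 to 19, which places every library on the side of its label. All 10 cardiomyocyte markers were detected, while the summed adipocyte markers reached at most 6.35 and the summed mesothelial and epithelial markers at most 135 normalized counts in any library. NTG 3 stood apart from the other NTG libraries: its median absolute log2 difference from their mean, over 7976 genes with a mean count of at least 100, was 0.138, against 0.0966 to 0.114 for each of those. Results that rest on NTG 3 are therefore given with and without it, an alternative added after the data were seen.

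Of the 10 genes, 1 rose, 1 fell and 8 did not pass the test in mNrf2-TG hearts. Ctnna3, which encodes αT-catenin, was 1.44-fold higher, and Cdh2, which encodes N-cadherin, fell by 23.8%. These were calls at an adjusted p under 0.05 in edgeR's quasi-likelihood test, adjusted over 14637 genes, of which 17.2% were called, 8.48% higher and 8.73% lower. A count of 2 of 10 is near that background, and near the 24% called among genes with a mean of at least 100 counts. At an unadjusted p under 0.05 there were 5 of 10, against 32.2% of all genes. The median Log2FC, the log2 of the mNrf2-TG to NTG ratio, was -0.08 over the members, and no member moved by more than 0.52 in either direction. The median absolute Log2FC was 0.198 over the members and 0.257 over all genes tested. Without NTG 3, 5 of the 10 passed the test, with Pkp2 and Ctnna3 higher and Dsg2, Dsc2 and Cdh2 lower, against 20.2% of all genes, 10.1% in each direction. Leaving out each other library in turn gave 1 or 2 called members, so 5 was the highest count of these fits. The 20.2% and the 32.2% include genes with few counts, while every member had at least 273 reads in every library.

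**Figure D1:**
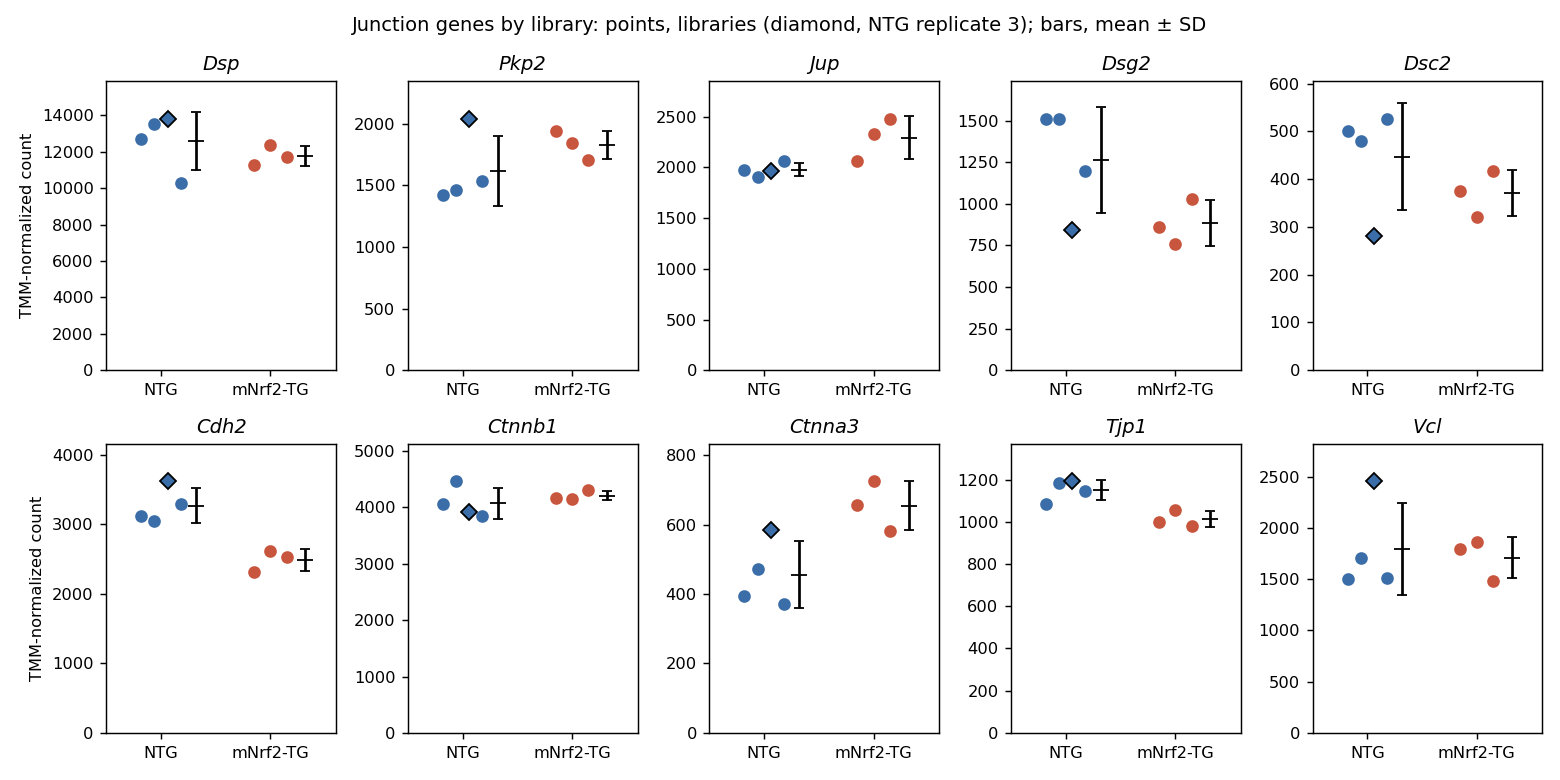
Normalized counts (TMM-scaled to the mean library total) of the 10 genes in each library, with points for the 4 NTG (diamond, NTG 3) and 3 mNrf2-TG hearts and bars for the mean ± SD. The groups were separate for Jup, Cdh2 and Tjp1, and for Dsg2 and Dsc2 one NTG library, NTG 3, lay among or below the mNrf2-TG hearts.

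Cdh2 (Entrez 12558) lies on chromosome 18 from 16588877 to 16809246 of GRCm38, on the minus strand. This classical cadherin is the transmembrane receptor of the adherens junction and binds the same protein on the next cell. Its normalized counts were 3123, 3053, 3619 and 3293 in NTG 1 to 4 and 2322, 2625 and 2532 in mNrf2-TG 17 to 19. Every mNrf2-TG heart lay below every NTG heart, and NTG 3 was the highest of the 7. The mean went from 3272 ± 253 (SD, n = 4) to 2493 ± 155 (SD, n = 3), with a Log2FC of -0.39 (SE 0.0797, 95% CI -0.57 to -0.21, edgeR adjusted p = 0.00971). Such separation was seen for 3 of the 10 members, Cdh2, Jup and Tjp1, against 29.7% of all genes tested and 37.8% of those with a mean of at least 100 counts. Without NTG 3 the Log2FC was -0.34 (edgeR adjusted p = 0.00919). The call stood in 14 of 14 other settings, with a highest adjusted p of 0.0464 when mNrf2-TG 17 was left out.

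Cdh2 and the other junction genes were measured in a lysate in which markers of several cell types differed by genotype. The summed normalized counts of 10 cardiomyocyte markers ranged from 684591 to 717090.0 in NTG hearts, with mNrf2-TG hearts at 591180.0 to 609580.0, and 4 of the 10 fell, among them Tnni3 (Log2FC -0.53) and Myl2 (Log2FC -0.57). Endothelial markers fell in 3 of 8 and rose in 1 of 8, with sums of 7374 to 8006 (NTG) against 6863 to 7065 (mNrf2-TG). By contrast 6 of 8 fibroblast markers and 5 of 8 macrophage markers rose, with sums of 9125 to 11703 against 13097 to 14053 and of 1367 to 1858 against 2314 to 3242. The part of these cell types in the lower Cdh2 level, the higher Ctnna3 level and the list results was not tested.

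The genes whose log2 counts followed those of Cdh2 most closely over the 7 libraries, among 7969 compared, were Gpihbp1 (r = 0.995), Sipa1l1 (r = 0.992) and Spen (r = 0.989). The points share the libraries and the split into 2 genotypes, so these coefficients are a description. Genes picked for following Cdh2, which separated the groups, tend to differ by genotype in the same direction. Their p-values below are therefore a description as well. Gpihbp1, which carries lipoprotein lipase across the capillary endothelium, fell by 0.68 on the log2 scale (edgeR adjusted p = 0.00292). Sipa1l1 fell by 0.51 (edgeR adjusted p = 0.0145, and 0.0573 without mNrf2-TG 17), and Spen had a Log2FC of -0.19 that did not pass (edgeR adjusted p = 0.0940).

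Ctnna3 (Entrez 216033) lies on chromosome 10 from 63430098 to 65003667, on the plus strand. αT-catenin is an α-catenin found mainly in heart and testis, where it binds β-catenin, actin and, unlike αE-catenin, the desmosomal protein plakophilin 2. The gene had 394, 472, 585 and 370.4 normalized counts in NTG 1 to 4 and 656, 724 and 582 in mNrf2-TG 17 to 19. The groups touched: mNrf2-TG 19 lay just below NTG 3, and both other mNrf2-TG hearts lay above all NTG hearts. From 455 ± 96.6 (SD, n = 4) to 654 ± 71.2 (SD, n = 3) the Log2FC was 0.52 (SE 0.148, 95% CI 0.19 to 0.85, edgeR adjusted p = 0.038). Without NTG 3 it was 0.66 (edgeR adjusted p = 0.00278). Of the 7 fits that left out 1 library, the call stood without NTG 3 and without mNrf2-TG 19 and was lost without NTG 1, 2 or 4 or mNrf2-TG 17 or 18. The adjusted p ran from 0.00278 to 0.127 over the 7, while the Log2FC stayed between 0.44 and 0.66.

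The region just before the first of the starts listed for Ctnna3 is shown because this gene passed the test upward. Which start was used in these hearts was not tested. RefSeq promoter windows, from 250 bases before to 50 after a start, were found for 6 of the 10 genes, with 9 windows in all. Cdh2, Dsg2, Dsc2 and Pkp2 had no window, so none of the motifs below was searched in them. The GC box, GGGCGG on either strand, was present in 7 of the 9 windows and in all 6 genes, against 35.7% of 32851 windows. For Ctnna3 it was in window 1, shown here, and not in windows 2 and 3. In the sequence below, RefSeq on GRCm38.p6 at chr10:63429848-63430097, plus strand, the capitals mark that motif as it reads on the other strand.
Ctnna3: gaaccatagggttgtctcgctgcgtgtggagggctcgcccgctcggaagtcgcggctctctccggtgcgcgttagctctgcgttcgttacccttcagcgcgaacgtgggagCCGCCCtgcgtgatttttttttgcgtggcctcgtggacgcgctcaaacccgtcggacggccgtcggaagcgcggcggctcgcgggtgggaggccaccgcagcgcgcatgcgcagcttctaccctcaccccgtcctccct
The core of the antioxidant response element, the site that Nrf2 binds with small Maf proteins, was searched as TGACNNNGC on both strands. It was found in 1 of the 9 windows, against 12.4% of all windows. That window belongs to the second of the starts listed for Ctnnb1, and the match is shown with its flanks at chr9:120933497-120933525, plus strand, with the match in capitals as it reads on the other strand.
Ctnnb1: ctcggtggcgGCCGCGTCAgctcgtgtcc
Of the other motifs, the TATA box (TATAAA) was in 2 windows, the TEAD core (GGAATG) in 2, the TCF/LEF core (CTTTGA) in 1 and the GATA core (AGATAA) in 0, against 13.6%, 14.7%, 16% and 11.2% of all windows. In Ctnna3 the TEAD match was in window 2, and the TATA box and TCF/LEF matches were in window 3. Such a match is a string of letters and not a measured binding site, and no binding was measured in these samples.

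Among the desmosomal genes the cadherins had the lower values in mNrf2-TG hearts, and neither passed the test on all 7 libraries. Dsg2 (Entrez 13511, chromosome 18 from 20558074 to 20604521, plus strand) encodes desmoglein 2, the desmoglein of cardiomyocytes. Its normalized counts were 1510.2, 1512, 841 and 1195 in NTG 1 to 4 and 859, 759 and 1031 in mNrf2-TG 17 to 19. NTG 3 lay among the mNrf2-TG hearts, and the other 3 NTG hearts lay above all of them. The means of 1265 ± 319 (SD, n = 4) and 883 ± 138 (SD, n = 3) gave a Log2FC of -0.52 (SE 0.191, 95% CI -0.94 to -0.09, edgeR adjusted p = 0.0904). DESeq2's Wald test called it (adjusted p = 0.0405), and so did edgeR without NTG 3, with a Log2FC of -0.67 (adjusted p = 0.00478).

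Dsc2 (Entrez 13506, chromosome 18 from 20030633 to 20059554, minus strand) encodes desmocollin 2, the partner cadherin. It had 501, 481, 281 and 527 normalized counts in NTG 1 to 4 and 374, 320.2 and 417 in mNrf2-TG 17 to 19. As for Dsg2, NTG 3 was the lowest NTG heart, here below all 3 mNrf2-TG hearts, while the other 3 NTG hearts lay above them. Over all libraries the Log2FC was -0.27 (SE 0.192, 95% CI -0.70 to 0.15, edgeR adjusted p = 0.361), and without NTG 3 it was -0.44 (SE 0.1, edgeR adjusted p = 0.0125). NTG 3 departed from the mean of the other NTG hearts by -0.73 (log2) for Dsg2 and -0.83 for Dsc2, more than 96.6% and 97.6% of the 7976 genes with a mean of at least 100 counts.

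Pkp2 (Entrez 67451, chromosome 16 from 16213318 to 16272712, plus strand) encodes plakophilin 2, an armadillo protein of the desmosomal plaque. Its normalized counts were 1422, 1464, 2039 and 1536 in NTG 1 to 4 and 1936, 1838 and 1706 in mNrf2-TG 17 to 19. NTG 3 was the highest of the 7, and the other 3 NTG hearts lay below all mNrf2-TG hearts. The Log2FC was 0.18 (SE 0.121, edgeR adjusted p = 0.346) over all libraries and 0.31 (SE 0.0751, edgeR adjusted p = 0.0164) without NTG 3. In edgeR's test the calls of Pkp2, Dsg2 and Dsc2 therefore turned on 1 NTG library, while that of Dsg2 turned on the choice of test as well.

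Jup (Entrez 16480, chromosome 11 from 100368958 to 100397763, minus strand) encodes plakoglobin, which serves in both desmosomes and adherens junctions. It had 1977, 1905, 1969 and 2062 normalized counts in NTG 1 to 4 and 2064, 2331 and 2481 in mNrf2-TG 17 to 19. The groups did not overlap, although mNrf2-TG 17 and NTG 4 were nearly level. With 1978 ± 64.4 (SD, n = 4) and 2292 ± 211 (SD, n = 3), the Log2FC of 0.21 (SE 0.0757, 95% CI 0.04 to 0.38) missed the threshold (edgeR adjusted p = 0.0814). It passed in 1 of 14 other settings, without mNrf2-TG 17 (edgeR adjusted p = 0.0471).

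Dsp (Entrez 109620, chromosome 13 from 38151294 to 38198577, plus strand) encodes desmoplakin, the anchor of desmin filaments. The counts in NTG 1 to 4 were 12714, 13527, 13818 and 10278, and those in mNrf2-TG 17 to 19 were 11255, 12364 and 11693. All 3 mNrf2-TG hearts lay within the NTG range, and the Log2FC was -0.10 (95% CI -0.32 to 0.12, edgeR adjusted p = 0.547). Its interval leaves out a fall or rise as large as the Log2FC of Ctnna3.

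**Figure D2:**
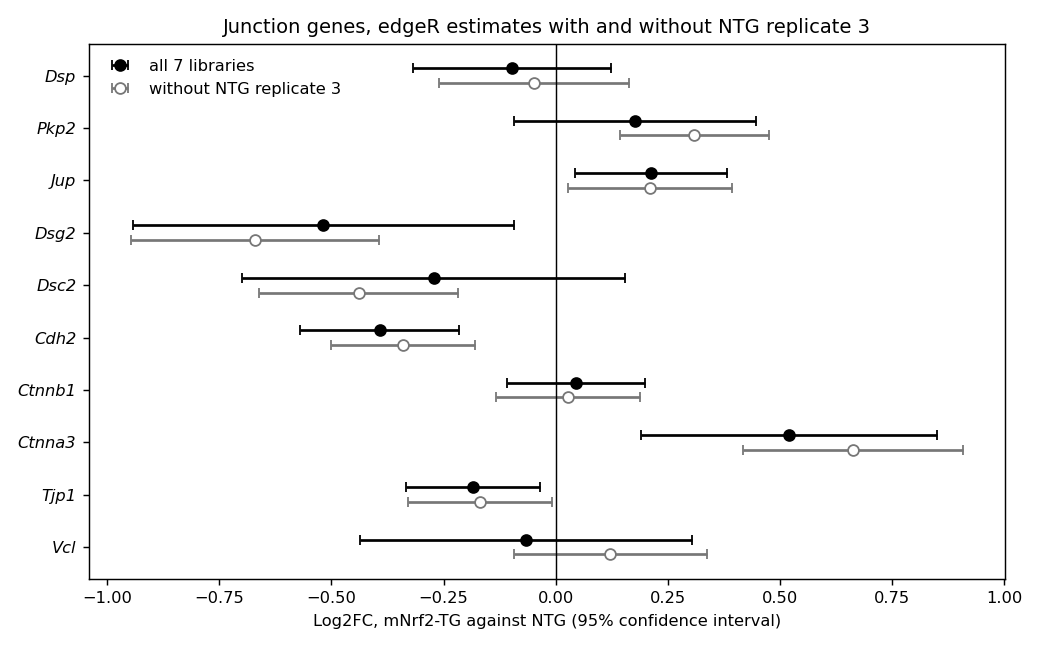
Log2FC (mNrf2-TG relative to NTG) of the 10 genes with 95% confidence intervals, for all 7 libraries and without NTG 3. These unadjusted intervals leave out 0 in both fits for Cdh2, Ctnna3, Dsg2, Jup and Tjp1, and for Pkp2 and Dsc2 in the fit without NTG 3.

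The remaining adherens junction and actin-linker genes did not pass the test. Ctnnb1 (Entrez 12387, chromosome 9 from 120929216 to 120960507, plus strand) encodes β-catenin, which also acts in Wnt signalling. It had 4063, 4459, 3924 and 3847 normalized counts in NTG 1 to 4 and 4159.5, 4155 and 4299.7 in mNrf2-TG 17 to 19. The mNrf2-TG hearts lay inside the NTG range, with a Log2FC of 0.05 (95% CI -0.11 to 0.20, edgeR adjusted p = 0.694).

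Tjp1 (Entrez 21872, chromosome 7 from 65296165 to 65527781, minus strand) encodes ZO-1, a scaffold that binds connexin 43 and α-catenin at the disc. Its normalized counts were 1085, 1182, 1191 and 1145 in NTG 1 to 4 and 999.5, 1057 and 981 in mNrf2-TG 17 to 19. Every mNrf2-TG heart lay below every NTG heart. The change from 1151 ± 48.1 (SD, n = 4) to 1013 ± 39.6 (SD, n = 3) gave a Log2FC of -0.18 (SE 0.0674, 95% CI -0.33 to -0.03), which missed the threshold (edgeR adjusted p = 0.0881) and was called in 0 of 14 other settings.

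Vcl (Entrez 22330, chromosome 14 from 20929398 to 21033676, plus strand) encodes vinculin, which reinforces junctions under load. It had 1502, 1702, 2453 and 1508 normalized counts in NTG 1 to 4 and 1790.3, 1861 and 1480.4 in mNrf2-TG 17 to 19. NTG 3 was far above the other hearts of both groups, which overlapped. Its Log2FC was -0.07 (95% CI -0.44 to 0.30, edgeR adjusted p = 0.822) over all libraries and 0.12 without NTG 3 (edgeR adjusted p = 0.412), so no direction can be given. Vcl shares 2090 exon bases with Ap3m1 on the opposite strand, and 25.1% of the 50-base stretches of its exons also occur in another gene. Ap3m1 itself had 327 to 445 reads per library and a Log2FC of -0.08 (edgeR adjusted p = 0.608). Ctnnb1 shares 12.3% of such stretches with Ulk4, which had at most 9 reads per library, and whether counting used the strand was not stated. For Cdh2, Dsc2, Pkp2 and Tjp1 this share was 0.

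In NTG 3 the departures were on both sides: beside the low desmosomal cadherins, Vcl was 0.65 (log2) above the mean of the other NTG hearts, Ctnna3 0.51 and Pkp2 0.47. The same library had a summed level of 8 smooth muscle and pericyte markers of 17304 normalized counts, against 8917 to 9341 in the other NTG hearts and 12695 to 16391 in mNrf2-TG hearts. Of those 8 markers, 0 rose and 1 fell with the genotype over all libraries, and 1 rose and 1 fell without NTG 3. The marker that rose was Acta2. Its Log2FC was 1.37 (edgeR adjusted p = 0.163) over all libraries and 2.53 (edgeR adjusted p = 0.000132) without NTG 3. Every other marker of this list had a Log2FC at or below 0 in both fits. The paper reports a rise of Acta2 in its transgenic hearts. The tested genes of the atrial list were Myl7, Myl4, Nppa and Myh7, and the paper counts Nppa and Myh7 among fetal genes of hypertrophy. Their sum, which is therefore not a measure of atrial tissue alone, was 30848 in NTG 3. It was 14639.7 to 21381 in the other NTG hearts and 20542 to 27899 in mNrf2-TG hearts. NTG 3 was also the NTG heart nearest to the mNrf2-TG hearts in summed macrophage markers, 1858 against 1367 to 1427 in the other NTG hearts, in fibroblast markers, 11703 against 9125 to 10485, and in mesothelial and epithelial markers, 77.3 against 103 to 135. The part of these cell types in the departures of NTG 3 was not tested.

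Levels per length differed far more among the members than between genotypes. Normalized counts per kilobase of exon were highest for Dsp, 1303 ± 166 (SD, n = 4) in NTG, followed by Ctnnb1 at 785 ± 52.4 and Cdh2 at 406 ± 31.3. Jup stood at 307 ± 10, Pkp2 at 301 ± 53.4 and Vcl at 219 ± 55.0 per kilobase. These neighbours overlapped across the NTG hearts, Jup with Pkp2 and Pkp2 with Vcl. Dsg2 at 153 ± 38.6 and Tjp1 at 147 ± 6.16 overlapped as well, as did Dsc2 at 84.8 ± 21.3 and Ctnna3 at 63.0 ± 13.4 at the low end. The first member was 20.7 times the last in NTG hearts, and 13.6 times when the longest transcript was taken as the length. In mNrf2-TG hearts Dsp and Ctnnb1 kept the first places with 1219 ± 57.8 and 810 ± 15.9 per kilobase (SD, n = 3), and 7 members changed rank, Cdh2 from place 3 to 5 at 309 ± 19.2. Ctnna3 at 90.5 ± 9.85 stood above Dsc2 at 70.2 ± 9.16 there.

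**Figure D3:**
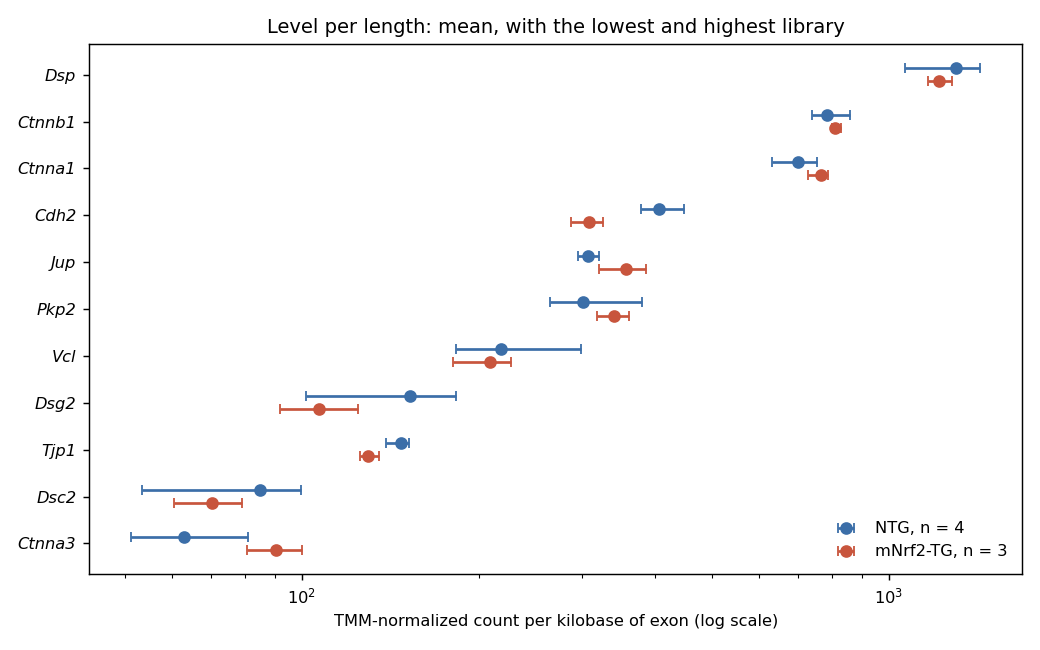
Normalized counts per kilobase of exon on a log axis for the 10 genes and Ctnna1, ordered by the NTG mean, with points for the mean of each group and bars from its lowest to its highest library. Dsp was 20.7 times Ctnna3 in NTG hearts (10.6 times with the longest transcript as the length), and neighbours in the order often overlapped.

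Pairs of related or adjoining disc proteins were compared as ratios within each library, 5 in all. The 2 α-catenins of the heart are Ctnna1 (αE-catenin) and Ctnna3, and Ctnna1 was the more abundant per length, 11.1 times Ctnna3 in NTG hearts and 8.49 times in mNrf2-TG hearts. The ratio of normalized counts of Ctnna3 to Ctnna1 was 0.0908, 0.0977, 0.124 and 0.0914 in NTG 1 to 4 and 0.130, 0.143 and 0.124 in mNrf2-TG 17 to 19. All mNrf2-TG hearts lay above all NTG hearts, NTG 3 and mNrf2-TG 19 by a narrow margin, and the mean log2 difference was 0.40 (exact permutation test, two-sided, p = 0.0571, 0.143 adjusted over the 5 ratios). Ctnna1 alone had a Log2FC of 0.13 (edgeR adjusted p = 0.257).

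For Cdh2 to Dsp, adherens to desmosomal, the ratio was 0.246, 0.226, 0.262 and 0.320 in NTG 1 to 4 and 0.206, 0.212 and 0.217 in mNrf2-TG 17 to 19. Again the groups were separate, with a mean log2 difference of -0.30 (exact permutation p = 0.0571, 0.143 adjusted). Pkp2 to Dsp ran from 0.108 to 0.150 in NTG hearts and from 0.146 to 0.172 in mNrf2-TG hearts, a difference of 0.28 (exact permutation p = 0.257, the same after adjustment). Dsg2 to Dsc2 lay between 2.27 and 3.14 in NTG hearts and between 2.29 and 2.47 in mNrf2-TG hearts, a difference of -0.25 (exact permutation p = 0.143, 0.214 adjusted). In NTG 3 the Dsg2 to Dsc2 ratio was 2.99, within the range of the other NTG hearts, although both genes were at their NTG minimum there. Jup to Ctnnb1 lay between 0.427 and 0.536 in NTG hearts and between 0.496 and 0.577 in mNrf2-TG hearts, a difference of 0.16 (exact permutation p = 0.171, 0.214 adjusted). With 35 ways to split 7 libraries the smallest possible p is 0.0286, which for a single ratio becomes 0.143 after adjustment over 5, so a ratio could not pass on its own whatever its size.

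**Figure D4:**
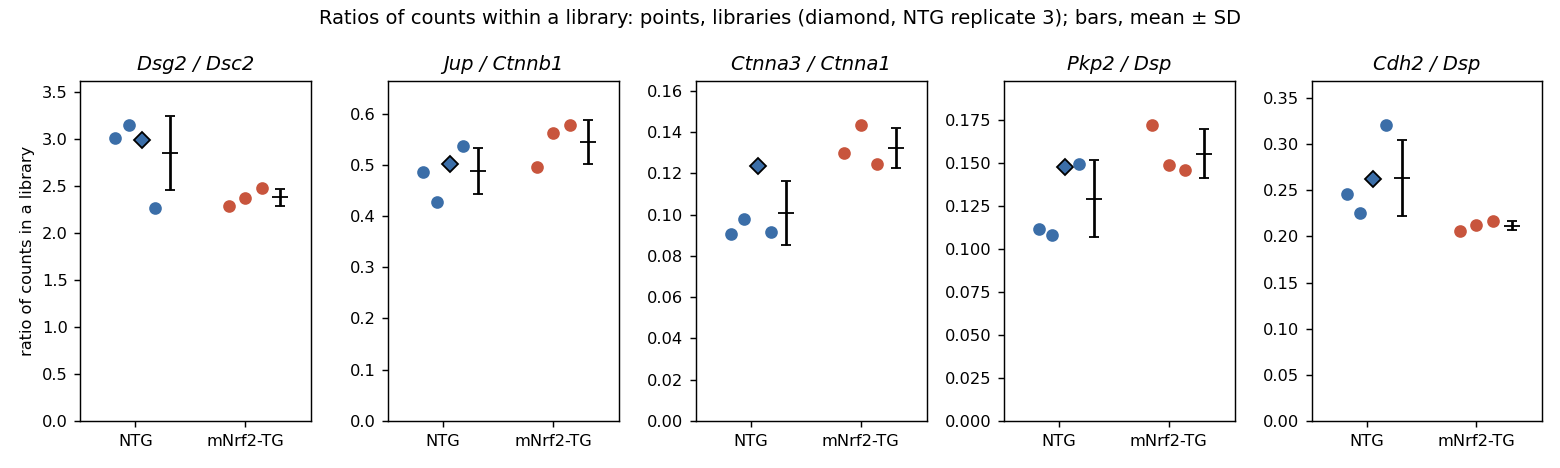
Ratio of normalized counts within each library for 5 pairs of partner genes, with a point for each heart (diamond, NTG 3) and bars for the mean ± SD. The groups were separate for Ctnna3 to Ctnna1 and for Cdh2 to Dsp.

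Genes that work with the members were taken from 8 lists of the disc and its signalling, with 118 of 136 genes tested. Of these, 11 rose (9.32%) and 20 fell (16.9%), a share called of 26.3%, against 17.2% of all genes and 24% of genes with a mean of at least 100 counts. Their median Log2FC was -0.06, and without NTG 3 17 rose and 17 fell, so the excess of lower over higher calls was seen only with that library included.

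Among 8 other desmosome and filament-anchoring genes tested, 2 rose and 1 fell. Synm, which encodes the intermediate filament protein synemin, rose from 95 ± 6.74 to 164 ± 15.9 normalized counts (Log2FC 0.79, edgeR adjusted p = 0.00195). Tmem43, a nuclear envelope gene mutated in a form of arrhythmogenic cardiomyopathy, rose by a Log2FC of 0.58 (edgeR adjusted p = 0.0136), and Perp, a desmosomal membrane protein of epithelia, fell by 0.43 (edgeR adjusted p = 0.0135). Des, for desmin itself, had a Log2FC of -0.16 (edgeR adjusted p = 0.199) and was named after its values were seen. Of 15 other adherens junction genes, 0 rose and 3 fell: Cdh13, for T-cadherin (Log2FC -0.54, edgeR adjusted p = 0.0021), Ctnnal1, for α-catulin (Log2FC -0.56, adjusted p = 0.0108), and Cdh5, the cadherin of endothelium (Log2FC -0.37, adjusted p = 0.0219). Cdh5 belongs to the endothelial markers above. Cdh13 was listed as a cadherin, and its place in adherens junctions was not tested. The other 12 genes, Ctnna1 among them, did not pass. Of 13 tight junction genes, 1 rose and 0 fell. The shares called were 37.5% of the desmosome and filament genes, 20% of the adherens junction genes and 7.69% of the tight junction genes. The share was 17.2% over all genes and 24% over genes with a mean of at least 100 counts.

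In the list of 14 gap junction and disc channel genes, 1 rose and 5 fell. That was a share called of 42.9%, against 17.2% of all genes and 24% of genes with a mean of at least 100 counts. Kcna5, a potassium channel of the disc, fell from 455 ± 32.5 to 192 ± 62.9 normalized counts (Log2FC -1.24, edgeR adjusted p = 0.00267). Fgf13, which binds sodium channels, fell by 0.45 (edgeR adjusted p = 0.00562), and Ank3, for the sodium channel anchor ankyrin-G, by 0.35 (edgeR adjusted p = 0.00606). Gja1, for connexin 43, rose by 0.50 (edgeR adjusted p = 0.0369) and was named after its values were seen. Its call stood in 2 of the 7 fits that left out a library.

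Vinculin partners and costamere genes had 3 of 25 higher and 3 lower with all libraries, and 5 higher and 3 lower without NTG 3. With all libraries the share called was 24%, the same as among genes with a mean of at least 100 counts. Over all genes it was 17.2%, and 20.2% without NTG 3. Parvb, for the integrin-linked β-parvin, rose from 1253 ± 88.8 to 2494 ± 300.2 normalized counts (Log2FC 0.99, edgeR adjusted p = 0.000193). Sorbs3, for the vinculin-binding vinexin, fell by 0.68 (edgeR adjusted p = 0.000358), and Pxn, for paxillin, fell by 0.58 (edgeR adjusted p = 0.00259). Of 16 genes placed on the disc adaptor list 3 rose and 4 fell with all libraries, a share called of 43.8%. Without NTG 3, 4 rose and 3 fell. Nrap, which links actin to the disc and binds vinculin, rose by a Log2FC of 0.60 (edgeR adjusted p = 0.0141). Igdcc4, a membrane protein of the immunoglobulin superfamily, rose by a Log2FC of 0.52 (edgeR adjusted p = 0.00584), and Fhl2, a LIM protein of the sarcomere and nucleus, by 0.45 (edgeR adjusted p = 0.0232). The place of Igdcc4 and Fhl2 in the disc was not tested.

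β-Catenin acts both at the junction and in Wnt signalling, and the shares called were 25% for the complex that degrades it and 12.5% for Wnt target and feedback genes, against 17.2% of all genes. Of 12 genes of the complex that degrades β-catenin, 1 rose and 2 fell: Amer1 (Log2FC 0.87, edgeR adjusted p = 0.028), Apc (Log2FC -0.26, adjusted p = 0.038) and the kinase gene Csnk1a1 (Log2FC -0.21, adjusted p = 0.0412). Without NTG 3 neither Apc (Log2FC -0.25, edgeR adjusted p = 0.0526) nor Csnk1a1 (Log2FC -0.21, adjusted p = 0.0572) passed, with Log2FC values close to those of all libraries. Of 16 genes listed as Wnt target and feedback genes, 0 rose, 2 fell and 14 did not pass over all libraries, while 3 rose without NTG 3. Those that fell were the transcription factor genes Tcf7l1 (Log2FC -0.56, edgeR adjusted p = 0.0202) and Tcf7l2 (Log2FC -0.71, adjusted p = 0.0497). Wnt activity itself was not measured.

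**Figure D5:**
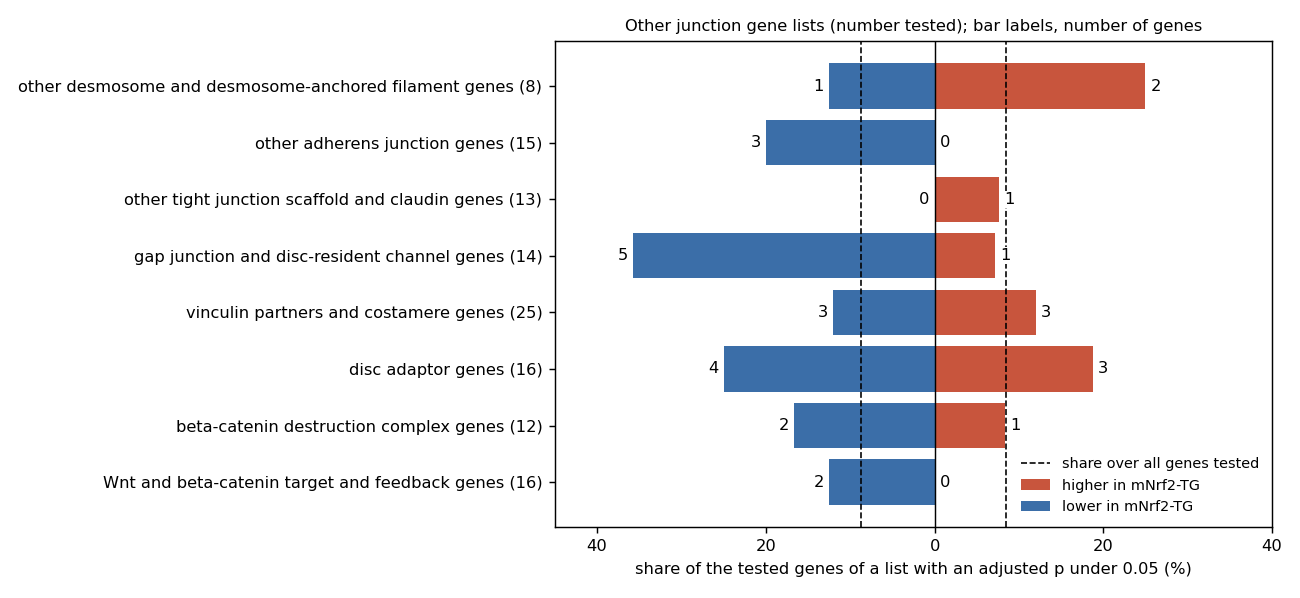
Percent of the tested genes of each list that rose (to the right) or fell (to the left) at an edgeR adjusted p under 0.05, with the count at the end of each bar and dashed lines at 8.48% and 8.73% for all genes. The gap junction and channel list had 1 higher and 5 lower of 14, and the list of other adherens junction genes 0 higher and 3 lower of 15.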

How the data were processed

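Poly(A)-selected RNA of 4 NTG and 3 mNrf2-TG hearts was sequenced from stranded libraries (1 end, 50 bases). Alignment was with Novoalign 2.08.01. The authors deposited raw counts per gene, and per the labels the build was mm10 (GRCm38), while the sequencing method names hg19. The counting program and its strand setting are not given in the sources used here. The authors also deposited a signal column, the mean of counts divided by DESeq2 1.32.0 size factors, from which the mean recomputed from the counts differed by at most a relative 0.0029, rlog values, which were not used, and their own fold changes and p-values, which were not used.

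Of 14665 entries, 24 repeats of a gene were removed. The 14637 genes with a summed count above 1 were compared between genotypes with edgeR 4.0.16 (R 4.3.3, TMM, quasi-likelihood test, no covariates, Benjamini-Hochberg adjustment across these genes). Each SE was obtained as |Log2FC|/√F. Normalized counts are TMM-scaled counts per library at the mean library total. Lengths are the union of exons in GENCODE M21. Ratios within a library used a pseudocount of 0.5 and an exact permutation test of log2 ratios. The members and lists were chosen with earlier results of these data known. Named genes are the members, up to 3 called genes of smallest p per list, the genes in the ratios, Nfe2l2 and the 3 genes most like the member of smallest p, and some of these are not reported here. Alternatives were DESeq2 1.42.0, limma-voom (limma 3.58.1), other scaling and filters, and leaving out each library. The fit was tested on simulated data. Tables and plots were made with Python 3.11.15.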

Additional observations from a re-analysis of the deposited data

Results flagged for a closer look

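Over 52 groups of 4 NTG values tested, 2 held a library far from the other 3, and chance flags about 1 in 20 such groups. Both were in NTG 3, in genes placed on the disc adaptor list, of which Igdcc4 encodes a membrane protein of the immunoglobulin superfamily. Nrap had 9741 normalized counts there against 7098 in the next NTG heart, a gap of 0.866 of the NTG range, and Igdcc4 had 221 against 191, a gap of 0.847 of the range. Both genes rose with the genotype, and in each NTG 3 was the NTG heart nearest to the mNrf2-TG hearts. The part of that library's other departures in these values was not tested.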

How the results depend on the processing

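Cdh2 was called in 14 of 14 other settings and Ctnna3 in 9. Leaving out 1 library at a time gave 1373 to 2950 called genes (2519 with all), 704 to 1471 higher and 669 to 1479 lower. Among the members it gave 1 to 5 called, 0 to 2 higher and 1 to 3 lower. DESeq2's Wald test called 2 members lower. The Log2FC of Vcl ran from -0.14 to 0.12 with 1 library left out, positive without NTG 3 (0.12) and without mNrf2-TG 19 (0.03), and the cause was not tested. Among named genes of the lists, calls lost with 1 library left out were those of Csnk1a1 (each of the 7 libraries, highest adjusted p 0.125), Apc (all but NTG 2, 0.116), Tcf7l2 (all but NTG 3, 0.158), Gja1 (NTG 1 and 2, mNrf2-TG 17, 18 and 19, 0.127), Amer1 (NTG 1, 2 and 4, mNrf2-TG 17 and 18, 0.106), Fhl2 (NTG 1, mNrf2-TG 17, 18 and 19, 0.071), Cdh5 and Tcf7l1 (NTG 2, mNrf2-TG 17 and 18, 0.0887 and 0.0806), Perp and Nrap (mNrf2-TG 17, 0.061 and 0.0627) and Tmem43 (mNrf2-TG 19, 0.0579). Scaled by library totals without TMM factors, Apc (adjusted p = 0.0604), Csnk1a1 (0.0834) and Tcf7l2 (0.0616) were lost, and limma-voom lost Tcf7l2 (0.0600). Without NTG 3, an alternative added after the data were seen, vinculin partners had 5 higher and the disc adaptor list 4 higher and 3 lower. Destruction complex genes had 0 lower and Wnt genes 3 higher. Cardiomyocyte markers had 1 higher and 5 lower, smooth muscle markers 1 higher, fibroblast markers 7 higher, macrophage markers 6 higher and the atrial list 2 higher. With the longest transcript as length, NTG levels per kilobase were 1124 for Ctnnb1, 676 for Cdh2, 617 for Jup, 551 for Pkp2, 340.1 for Vcl, 219 for Dsg2, 163 for Tjp1 and 124 for Ctnna3, which then stood above Dsc2. A shorter length raises a level by construction. Leaving out a library leaves too few splits for a ratio to pass. No paired analysis was possible because the groups share no replicate number.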
